A study of Mus musculus with 16 samples.

Results

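Microglia and macrophages of the mouse retina were followed through 45 of their genes, taken by name from a list and measured among 25635 genes and gene names on the array. Probes were matched by current or older symbol, and the brightest probe on average stood for each gene. All 45 members were found, 3 of them only under an older symbol (Emr1 for Adgre1, Sfpi1 for Spi1, Lyzs for Lyz2). All 45 also passed the filter on dim probes, and 44 had a Cy3 signal well above background on all 16 arrays.

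All samples were whole retinas of C57Bl6 mice, collected 24 h after the eye was injected. Pups of 8 days received 4 µg of hFc, the Fc part of an antibody alone and the control of the study (n = 4), or 4 µg of Dll4-Fc, a soluble form of the Notch ligand Dll4 joined to Fc (n = 4). Others received 1 µg of VEGF-A, the growth factor that drives retinal vessel growth (n = 5), or VEGF Trap, a soluble decoy receptor that binds VEGF (n = 3), whose dose and age at injection are not given in the labels. A sample labelled with Cy3 was read on each array beside RNA pooled from the experiment and labelled with Cy5, without dye swaps, and a level here is the log2 ratio of sample over reference. A level above 0 thus means more RNA of that gene than in the pool, and levels of different genes are not compared. Whether the samples stem from separate animals is not stated, and p-values therefore reflect only the spread among these samples, which may be technical.

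Microglia are the resident macrophages of the retina. Their development depends on the transcription factors PU.1 (Spi1) and Irf8 and on the receptor Csf1r, and in the postnatal retina they lie close to the growing vessels. Surveying microglia express P2ry12, Tmem119, Cx3cr1 and Siglech, and on activation many lower these genes and raise genes of phagocytosis, antigen uptake and inflammation. Most members, Cx3cr1 among them, are shared with macrophages and monocytes that enter from the blood. In RNA of whole retina these members do not tell resident from entering cells. More cells of a type and more RNA per cell also cannot be told apart in such bulk samples. The 8 rod genes listed were all above the filter, and 7 were well above background on all 16 arrays. So were all 6 mast cell genes and 5 of 6 B cell genes, so such detection does not show the tissue of origin.

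The promoters of some members carry the letters that PU.1 and interferon regulatory factors are known to bind, and 6 windows are shown as examples. The windows shown for members that rose were all taken from those with a match, so they do not tell how often matches go with a rise. RefSeq sequences of GRCm38.p6, from 250 bases before to 50 bases after the start, were at hand for 33 of the 45 members in 38 windows. Capitals mark matches on either strand to the PU.1 site GAGGAAGT, to the composite site of PU.1 and an interferon regulatory factor (GGAA, any 2 bases, GAAA), and to the interferon response element (GAAA, any 2 bases, GAAA). Spp1 (chr5:104434861-104435160, plus strand) encodes the secreted matrix protein osteopontin, Cybb (chrX:9469275-9469574, minus strand) the catalytic part of the phagocyte oxidase and Ctss (chr3:95526536-95526835, plus strand) the lysosomal protease cathepsin S. Aif1 (chr17:35176003-35176302, minus strand) encodes the microglial marker Iba1 and Vav1 (chr17:57278850-57279149, plus strand) a signalling protein of blood cells. P2ry12 (chr3:59262936-59263235, minus strand), the receptor for nucleotides of surveying microglia, is given as a member that fell, and its window holds none of these letters. The windows of Ly86, Fcgr1 and Cd48, which rose, hold none of them either and are not shown.
Spp1: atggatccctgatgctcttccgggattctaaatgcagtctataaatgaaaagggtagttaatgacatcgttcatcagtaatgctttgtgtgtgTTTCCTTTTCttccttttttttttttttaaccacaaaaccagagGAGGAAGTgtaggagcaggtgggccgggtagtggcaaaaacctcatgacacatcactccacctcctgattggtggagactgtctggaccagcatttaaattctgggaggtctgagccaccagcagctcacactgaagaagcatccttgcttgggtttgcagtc
Cybb: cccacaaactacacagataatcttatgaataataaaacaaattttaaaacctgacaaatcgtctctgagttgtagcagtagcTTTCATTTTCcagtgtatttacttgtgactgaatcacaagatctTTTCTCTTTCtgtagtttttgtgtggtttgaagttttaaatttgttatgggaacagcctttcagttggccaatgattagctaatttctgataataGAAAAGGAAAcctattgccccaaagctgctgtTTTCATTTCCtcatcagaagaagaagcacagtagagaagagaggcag
Ctss: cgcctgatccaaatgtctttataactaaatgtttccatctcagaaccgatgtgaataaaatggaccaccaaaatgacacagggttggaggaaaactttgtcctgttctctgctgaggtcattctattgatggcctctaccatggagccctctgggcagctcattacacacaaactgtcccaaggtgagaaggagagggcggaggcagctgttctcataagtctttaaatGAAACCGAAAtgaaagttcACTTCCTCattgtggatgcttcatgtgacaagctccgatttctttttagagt
Aif1: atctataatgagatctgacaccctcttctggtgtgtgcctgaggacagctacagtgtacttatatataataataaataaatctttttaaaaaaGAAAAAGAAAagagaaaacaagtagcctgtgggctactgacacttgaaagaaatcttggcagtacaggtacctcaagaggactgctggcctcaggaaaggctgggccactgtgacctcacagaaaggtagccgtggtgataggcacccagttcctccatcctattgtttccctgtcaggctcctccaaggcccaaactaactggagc
Vav1: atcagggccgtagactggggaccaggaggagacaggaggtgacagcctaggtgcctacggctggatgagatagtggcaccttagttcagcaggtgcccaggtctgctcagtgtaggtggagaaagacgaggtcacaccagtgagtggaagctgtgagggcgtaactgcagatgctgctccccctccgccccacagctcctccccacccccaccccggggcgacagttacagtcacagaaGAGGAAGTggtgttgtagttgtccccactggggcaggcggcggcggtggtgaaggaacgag
P2ry12: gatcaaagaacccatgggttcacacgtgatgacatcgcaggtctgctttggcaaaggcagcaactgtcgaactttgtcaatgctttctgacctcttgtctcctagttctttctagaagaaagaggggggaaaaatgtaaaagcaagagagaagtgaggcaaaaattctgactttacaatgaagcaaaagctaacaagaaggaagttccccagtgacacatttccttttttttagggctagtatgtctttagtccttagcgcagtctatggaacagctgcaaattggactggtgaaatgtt

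The PU.1 site stood in the windows of 5 members (Apbb1ip, Cd53, Ctss, Spp1 and Vav1), which is 15.2% of the 33 matched members against 3.69% of 27025 genes. Counted by window, it was in 13.2% of the members' windows and in 3.2% of all 32851 windows. The composite site was found in 3 members (Cd68, Cybb and Fcgr2b), 7.89% of their windows against 2.72% of all windows. The interferon element was found in 4 members (Aif1, Ctss, Cybb and Spp1), 10.5% against 3.44% of windows, and Cybb held it 3 times. The shares describe letters in these windows and were not tested. Matches to different motifs can overlap, and no binding was measured.

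**Figure D1:**
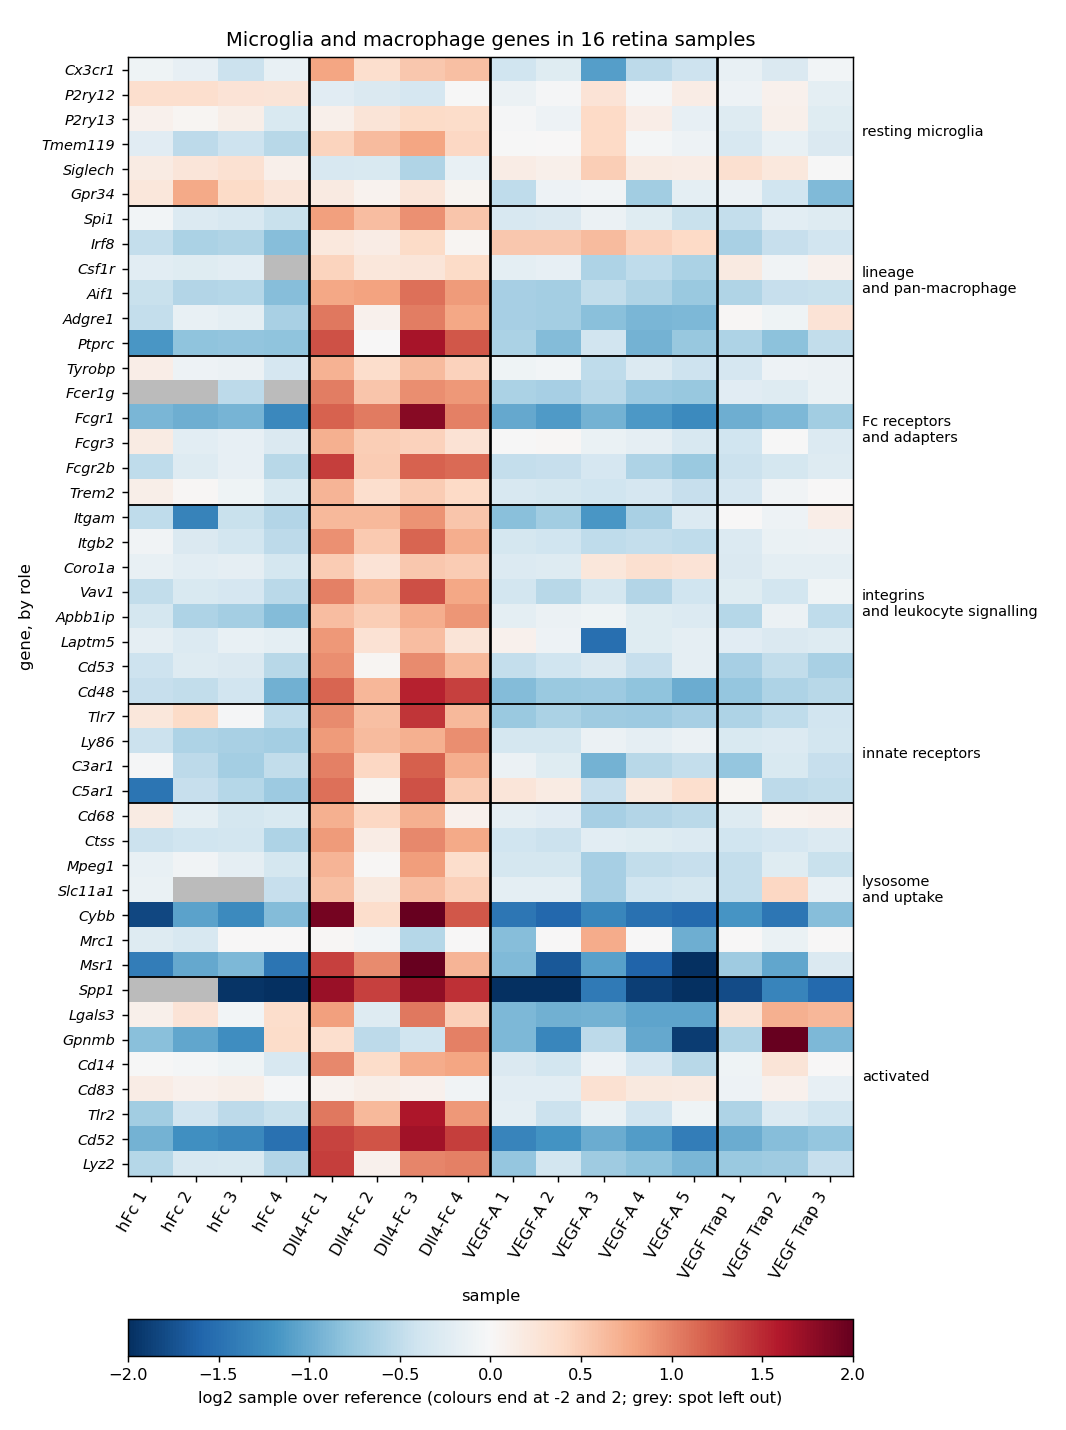
Heat map of the log2 ratio of sample over reference for 45 members (rows, by role) in 16 samples (columns, by group), with colours ending at −2 and 2 and spots left out in grey. The 4 Dll4-Fc samples are red in most rows, and Irf8 is also red in the 5 VEGF-A samples.

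Dll4-Fc was compared with hFc to see which genes followed the soluble ligand rather than its Fc part. After Dll4-Fc, 35 of the 45 members rose and 2 fell. The share of members past the threshold was 82.2%, against 4.6% of all 22737 genes tested. By direction, 77.8% of the members and 3.07% of all genes rose, and 4.44% of the members and 1.53% of all genes fell. The median difference over the members was 1.00 on the log2 scale, against −0.02 over all genes. Members that rose did so by 0.54 to 3.62 on that scale. The groups did not overlap for 36 higher and 2 lower members, against 6.14% and 5.63% of all genes, or 84.4% against 11.8% in either direction. For 31 members every Dll4-Fc value lay above every value of the other 3 groups. The share of all genes with such a separation was not counted. All hFc samples lay on slide 1 and all Dll4-Fc samples on slide 2, so that slide and treatment cannot be told apart.

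Among the 6 markers of resting microglia, 2 rose, 2 fell and 2 did not pass the threshold, with a median difference of 0.02. P2ry12 measured 0.33, 0.34, 0.27 and 0.25 in the hFc samples and −0.23, −0.29, −0.33 and −0.01 in the Dll4-Fc samples. All Dll4-Fc values were lower, and P2ry12 fell by 0.51 (SE 0.10, adjusted p 0.00451). When all probes of P2ry12 were averaged, the difference was −0.35 (adjusted p 0.446). Siglech, a lectin receptor of microglia, measured 0.16, 0.24, 0.30 and 0.10 with hFc and −0.32, −0.31, −0.60 and −0.15 with Dll4-Fc. These groups did not overlap either, and Siglech fell by 0.54 (SE 0.11, adjusted p 0.00747), or by 0.33 (adjusted p 0.025) with normexp background correction and loess.

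The other resting markers did not share that direction. Tmem119, a membrane protein of surveying microglia, measured −0.23, −0.52, −0.42 and −0.55 with hFc and 0.44, 0.63, 0.78 and 0.42 with Dll4-Fc. It rose by 1.00 (SE 0.12, adjusted p 5.99e-05), with no overlap. Cx3cr1, the receptor for neuronal fractalkine, rose by 0.77 (SE 0.16, adjusted p 0.00719). P2ry13, another nucleotide receptor, differed by 0.30 (SE 0.13, adjusted p 0.351) and the lysophospholipid receptor Gpr34 by −0.26 (SE 0.17, adjusted p 0.616), so neither passed the threshold. The Dll4-Fc samples thus held higher levels of 2 resting markers and lower levels of 2 others.

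All 6 lineage and pan-macrophage genes rose, with a median difference of 1.05. Aif1 measured −0.45, −0.58, −0.57 and −0.85 in the hFc samples and 0.77, 0.81, 1.11 and 0.85 in the Dll4-Fc samples, a rise of 1.5 (SE 0.10, adjusted p 2.91e-07). Spi1, the gene of PU.1, rose by 1.00 (SE 0.11, adjusted p 2.78e-05) and Irf8 by 0.83 (SE 0.10, adjusted p 5.47e-05). Ptprc, the gene of CD45, measured between −1.16 and −0.79 with hFc and 1.27, 0.01, 1.65 and 1.24 with Dll4-Fc. Its rise of 1.93 (SE 0.26) thus held a low sample, Dll4-Fc 2, which was still above every hFc value. The same sample was the lowest of its group for Adgre1, the gene of the macrophage marker F4/80, at 0.08 against 1.05, 1.02 and 0.78. Adgre1 rose by 1.1 (SE 0.18, adjusted p 0.00154), and by 0.98 (adjusted p 0.0679) when its probes were averaged. Csf1r, the receptor for the growth factors Csf1 and Il34, had the smallest rise of the 6 at 0.54 (SE 0.12, adjusted p 0.0168), over 3 hFc values. Leaving out hFc 1, hFc 2, hFc 3 or Dll4-Fc 1 ended its call, with an adjusted p of 0.0511 to 0.0633, as did averaging hFc 1 and 2 (0.056). With all probes of Csf1r averaged the difference was 0.35 (adjusted p 0.319).

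Fc receptors and their adapters were next, and all 6 rose, with a median of 1.00. Fcgr1, the high-affinity receptor for IgG, measured −0.92, −0.98, −0.93 and −1.29 with hFc and 1.18, 1.04, 1.82 and 1.00 with Dll4-Fc, a rise of 2.29 (SE 0.16, adjusted p 5.3e-07). The inhibitory receptor Fcgr2b rose by 1.42 (SE 0.16) and Fcgr3 by 0.61 (SE 0.12). The adapter Tyrobp rose by 0.64 (SE 0.12) and Trem2, the lipid receptor that signals through it, by 0.54 (SE 0.10). Fcer1g, the shared signalling chain of several Fc receptors, rose by 1.36 (SE 0.16, adjusted p 0.000199) against a single hFc value of −0.52, because the other hFc spots were marked as outliers. With those spots kept the difference was 1.54 over 4 hFc values. Both the treatment and the control protein carry an Fc part.

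Of 8 integrins and leukocyte signalling genes, 7 rose and the median was 1.23. Cd48, an adhesion and costimulatory molecule, measured −0.46, −0.49, −0.38 and −0.96 with hFc and 1.16, 0.66, 1.54 and 1.37 with Dll4-Fc. Cd48 rose by 1.75 (SE 0.16, adjusted p 8.45e-06). Itgam and Itgb2, which together form the complement receptor CD11b/CD18, rose by 1.4 (SE 0.19) and 1.15 (SE 0.12). Vav1 rose by 1.35 (SE 0.12), the tetraspanin Cd53 by 1.02 (SE 0.16) and the actin-binding Coro1a by 0.68 (SE 0.13). Apbb1ip, an adapter that links Rap1 to integrins, rose by 1.31 (SE 0.12). Another, dimmer probe of Apbb1ip, used when a band of array rows was left out, gave 0.09 (adjusted p 0.959), and the mean of its probes 0.50 (adjusted p 0.194). Laptm5, a lysosomal protein of blood cells, differed by 0.71 (SE 0.26, adjusted p 0.204), did not pass the threshold and yet had no overlap between the groups.

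The 4 innate receptors all rose, with a median of 1.32. Ly86, a partner of a Toll-like receptor homologue, measured −0.43, −0.62, −0.65 and −0.68 with hFc and 0.85, 0.64, 0.71 and 0.94 with Dll4-Fc, a rise of 1.38 (SE 0.09, adjusted p 2.17e-07). The anaphylatoxin receptors C5ar1 and C3ar1 rose by 1.53 (SE 0.28) and 1.26 (SE 0.20). With normexp background correction and loess the rise of C5ar1 was 0.61 (adjusted p 0.0147). The RNA sensor Tlr7 rose by 0.90 (SE 0.19, adjusted p 0.00893), and had an adjusted p of 0.12 when only these 2 groups were fitted.

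Among 7 genes of lysosome and uptake, 5 rose, with a median of 0.77. Cybb measured −1.82, −1.07, −1.27 and −0.87 with hFc and 1.92, 0.36, 2.33 and 1.25 with Dll4-Fc. Its rise was 2.72 (SE 0.33, adjusted p 7.56e-05), and Dll4-Fc 2 was again the lowest of its group. The scavenger receptor Msr1 rose by 2.47 (SE 0.34), Ctss by 1.13 (SE 0.14) and the pore-forming Mpeg1 by 0.67 (SE 0.14). The call of Mpeg1 ended with all its probes averaged (0.54, adjusted p 0.148) and with only these 2 groups fitted (adjusted p 0.103). With normexp and loess Cybb rose by 1.64 and Msr1 by 1.56. Cd68, a lysosomal glycoprotein, rose by 0.65 (SE 0.16, adjusted p 0.0329), although Dll4-Fc 4 at 0.08 lay below hFc 1 at 0.17. Leaving out hFc 2, 3 or 4 or Dll4-Fc 1, 2 or 3 ended the call of Cd68, with an adjusted p of 0.0593 to 0.114, as did fitting only these 2 groups (0.115). Slc11a1, a metal transporter of the phagosome, differed by 0.77 (SE 0.22, adjusted p 0.0786) over 2 hFc values. The mannose receptor Mrc1 was well above background on only 3 arrays, 0 of them hFc, and its difference of −0.01 (SE 0.29) says little.

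Among 8 genes tied to activation, 5 rose and the median was 1.07. Spp1 measured −1.96 and −2.11 in hFc 3 and 4, the hFc samples with a value, and 1.73, 1.36, 1.78 and 1.46 with Dll4-Fc. Spp1 rose by 3.62 (SE 0.29, adjusted p 7.28e-06), or 12.3-fold. A second probe of Spp1, measured in all 4 hFc samples, gave a rise of 3.11 (SE 0.34, adjusted p 4.37e-05). Cd52, a small surface glycoprotein of leukocytes, measured −0.94, −1.23, −1.28 and −1.48 with hFc and 1.35, 1.26, 1.68 and 1.38 with Dll4-Fc. Cd52 rose 6.29-fold (log2 2.65, SE 0.12, adjusted p 8.46e-09), the smallest p of all members in this comparison. Tlr2, which recognises bacterial lipoproteins, rose by 1.56 (SE 0.17), the lysozyme gene Lyz2 by 1.31 (SE 0.21) and the endotoxin co-receptor Cd14 by 0.83 (SE 0.13).

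Not every activation gene moved. Cd83 measured 0.15, 0.08, 0.12 and −0.03 with hFc and 0.08, 0.12, 0.08 and −0.06 with Dll4-Fc. The difference of Cd83 was −0.03 with a 95% interval of −0.27 to 0.22. Lgals3, the carbohydrate-binding galectin-3, measured 0.10, 0.27, −0.05 and 0.35 with hFc and 0.82, −0.26, 1.05 and 0.48 with Dll4-Fc, so that Dll4-Fc 2 lay below and the other three above all hFc values. Its difference was 0.35 (SE 0.21, adjusted p 0.566). Gpnmb, a glycoprotein of phagocytes, spread from −1.24 to 0.36 with hFc and from −0.53 to 1.01 with Dll4-Fc, and its difference of 0.79 (SE 0.60, adjusted p 0.687) did not pass the threshold. Whether the activated group moved more than the resting group was not tested.

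**Figure D2:**
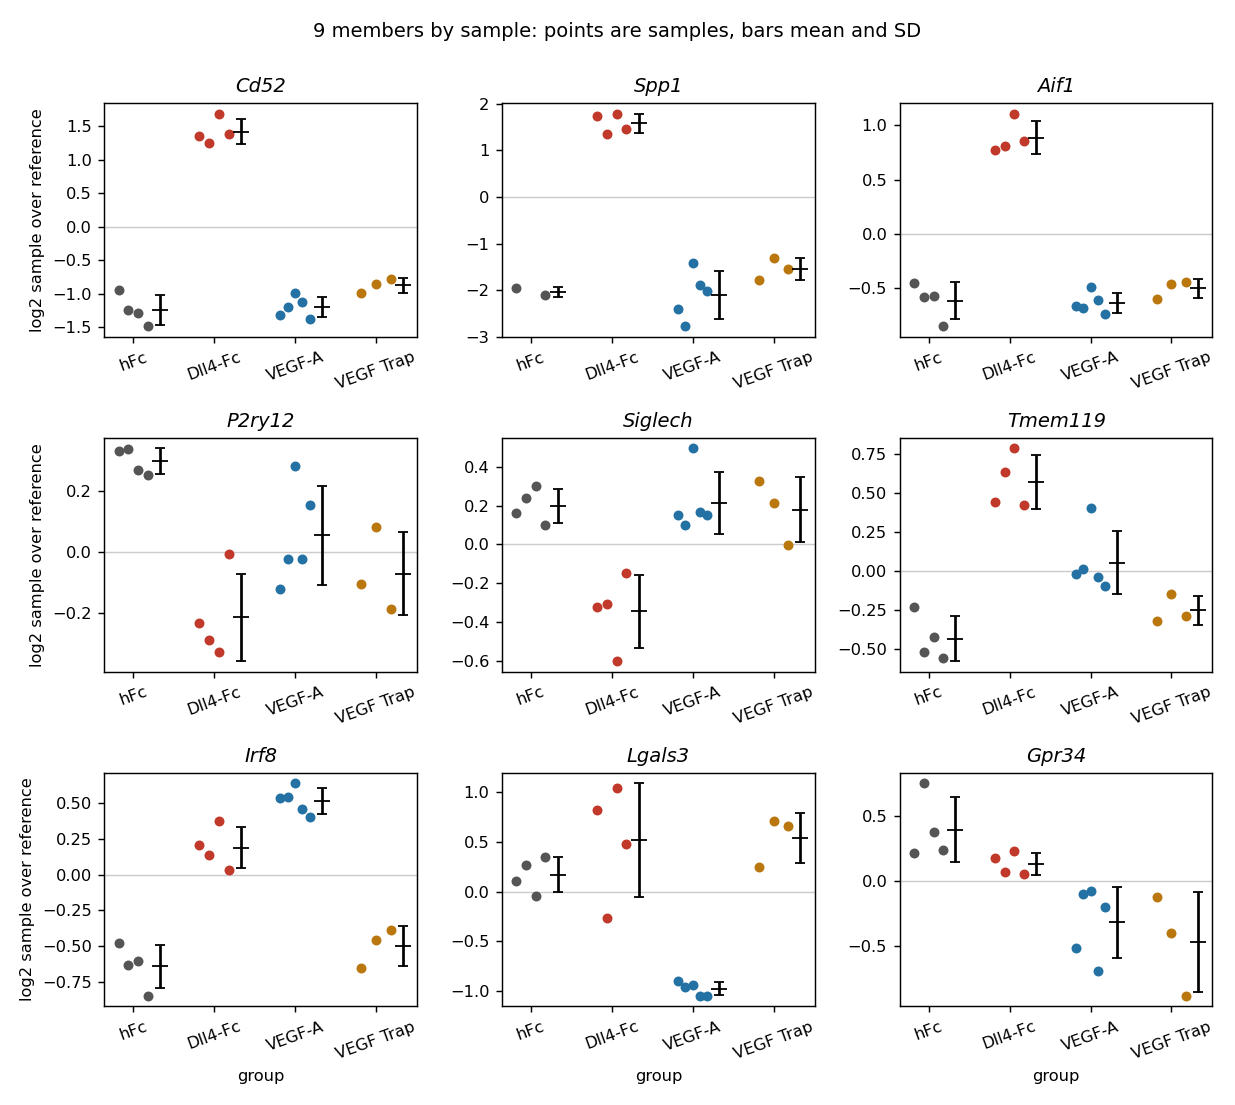
Log2 ratio of sample over reference of 9 members in each sample (points) by group, with the group mean and SD as a bar beside them. Cd52, Spp1 and Aif1 are highest in the Dll4-Fc samples, P2ry12 and Siglech are lower there than in the hFc samples, and Irf8 is highest and Lgals3 lowest in the VEGF-A samples.

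The Dll4-Fc samples differed among themselves. Dll4-Fc 2 was the lowest of the 4 for 29 of the 45 members and Dll4-Fc 3 the highest for 27. The mean over the members was 0.79, 0.36, 0.86 and 0.63 in Dll4-Fc 1 to 4, against −0.51 to −0.34 in the hFc samples. Without Dll4-Fc 2, 35 members rose and 2 fell, with a median of 1.04. Leaving out other hFc or Dll4-Fc samples singly gave 34 to 37 members past the threshold.

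Genes of other lists moved beside the members, and their part in the result was not tested. Of 15 interferon response genes tested, 14 rose after Dll4-Fc and 0 fell, with a median difference of 2.51. Their mean level was 0.66, 1.44, 2.09 and 0.21 in Dll4-Fc 1 to 4 and −1.52 to −1.33 in the hFc samples. Dll4-Fc 3 was the highest sample of its group in this list and in the mean over the members. The lowest was Dll4-Fc 4 in this list and Dll4-Fc 2 in the mean over the members. Bst2, an antiviral membrane protein, rose by 3.34 (SE 0.28), Rtp4 by 3.27 (SE 0.31) and the ubiquitin-like Isg15 by 2.94 (SE 0.31). Müller glia genes went the other way, with 0 of 10 higher and 7 lower. The mean of that list was −1.06, −1.15, −1.22 and −0.60 with Dll4-Fc and −0.06 to 0.03 with hFc. The transporter Abca8a fell by 3.63 (SE 0.15) and the retinoid-binding Rlbp1 by 1.11 (SE 0.13). None of 8 rod genes passed the threshold (limma), and 1 of 8 endothelial genes did.

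Markers of blood-borne cells were the next question. Of 9 monocyte genes tested, 4 rose and 0 fell, and the mean level of the list was 0.03 to 1.21 with Dll4-Fc against −0.78 to −0.58 with hFc. Plac8 measured −1.88, −2.39, −2.40 and −2.18 with hFc and 1.73, 0.06, 2.44 and 1.2 with Dll4-Fc, a rise of 3.57 (SE 0.36, adjusted p 1.93e-05). Ms4a4c rose by 3.45 (SE 0.41) and Ly6c1, which endothelial cells also express, by 2.07 (SE 0.27). Whether these rises stem from entering monocytes was not tested. Ccr2, the chemokine receptor that defines inflammatory monocytes, did not pass the filter on dim probes. For neutrophils 1 of 12 genes rose (Lcn2, by 2.3), and for border macrophages 1 of 8 (Ms4a7, by 2.81), while their markers Cd163 and Ly6g were not among the genes kept. For T and NK cells 2 of 11 rose (Cd2 and Cd3d), for B cells 2 of 6 (Cd79b and Ms4a1), and for mast cells 0 of 6 rose and 1 fell (Kit).

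Of 18 further microglia genes outside the 45 members, 9 rose and 1 fell, with a median of 0.42. The phospholipase Plcg2 rose by 1.05 (SE 0.10) and the kinase Lyn by 0.70 (SE 0.07). The single gene that fell was the engulfment receptor Mertk, by 0.40 (SE 0.09, adjusted p 0.02), chosen after its values were seen. Of 17 disease-associated genes, known from microglia around plaques and degenerating cells, 7 rose and 1 fell. They included the chemokine Ccl12 (3.04, SE 0.26), the integrin Itgax (1.04, SE 0.13) and the cystatin Cst7 (1.13, SE 0.16).

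The ligands that feed or restrain microglia were set beside these receptors. None of the 8 passed the threshold after Dll4-Fc (limma). The Csf1r ligands differed by 0.10 (Csf1, SE 0.13) and 0.22 (Il34, SE 0.41), and Csf2 by −0.28 (SE 0.34). Cx3cl1, the ligand of Cx3cr1, differed by 0.10 (SE 0.15), and the restraining signals Cd200 by 0.08 (SE 0.11) and Cd47 by −0.01 (SE 0.08). Tgfb1 and Tgfb2, which keep microglia in their resting state, differed by 0.12 (SE 0.16) and 0.23 (SE 0.14), Tgfb1 over a single hFc value.

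**Figure D3:**
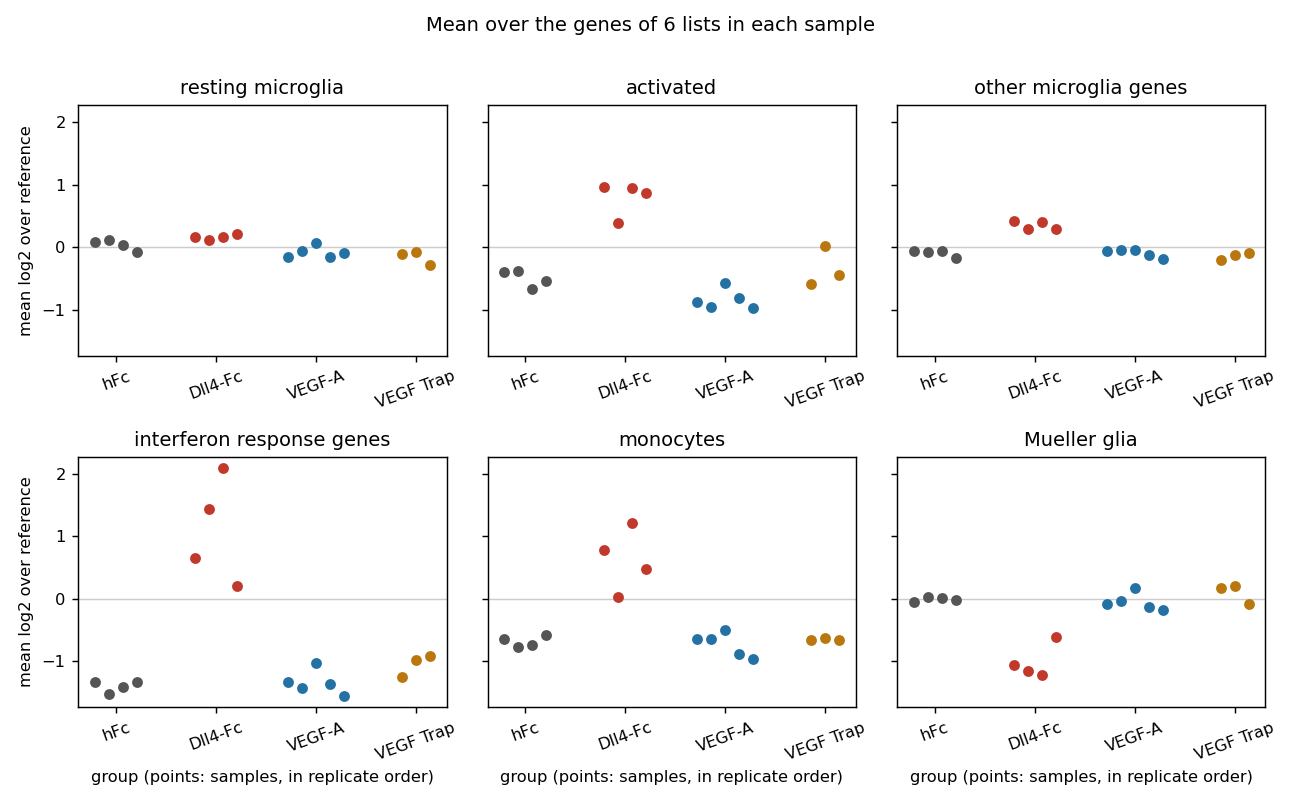
Mean log2 ratio of sample over reference over the genes of 6 lists in each sample (points), by group. The activated list and the interferon and monocyte lists are higher in all 4 Dll4-Fc samples than in any hFc sample, the Müller glia list (labelled Mueller glia) is lower, and the resting list lies at 0.12 to 0.22 with Dll4-Fc and at −0.07 to 0.12 with hFc, just short of overlap.

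VEGF-A was next compared with hFc, a contrast that also holds the absence of the injected Fc part. Of the 45 members, 5 rose and 3 fell, which is 17.8% against 10.2% of all 22737 genes tested. By direction, 11.1% of members rose against 5.88% of genes, and 6.67% fell against 4.3%. The median difference over the members was −0.07, against −0.05 over all genes. No overlap was seen for 4 higher and 7 lower members, against 7.62% and 8.44% of all genes, or 24.4% against 16.1% in either direction. The doses differed, at 1 µg of VEGF-A and 4 µg of hFc, and the VEGF-A samples lay on slides 3 and 4.

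Irf8, a transcription factor of the macrophage lineage, stood out. It measured −0.48, −0.63, −0.60 and −0.85 with hFc and 0.54, 0.54, 0.64, 0.46 and 0.41 with VEGF-A. The groups were far apart, with a rise of 1.16 (SE 0.09, adjusted p 3.08e-07), or 2.23-fold. Against hFc the rise was 1.18 (SE 0.12) for the VEGF-A samples of slide 3 and 1.14 (SE 0.11) for those of slide 4. None of the other five lineage genes passed the threshold. Spi1 differed by −0.01 (SE 0.10), Aif1 by −0.02 (SE 0.09), Ptprc by 0.18 (SE 0.25), Csf1r by −0.20 (SE 0.12) and Adgre1 by −0.44 (SE 0.17, adjusted p 0.136).

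The remaining rises after VEGF-A were smaller. Tmem119 measured −0.02, 0.01, 0.40, −0.04 and −0.10 with VEGF-A, all above the hFc samples, and rose by 0.49 (SE 0.11, adjusted p 0.00988). Ly86 rose by 0.37 (SE 0.08, adjusted p 0.00777), Apbb1ip by 0.45 (SE 0.11, adjusted p 0.0215) and C5ar1 by 0.90 (SE 0.26, adjusted p 0.0445). The call of Tmem119 ended with slide 4 alone (adjusted p 0.0534). That of Ly86 ended with Cy3 alone (0.26, adjusted p 0.163) and with slide 3 alone (0.25, adjusted p 0.152). The call of Apbb1ip ended without hFc 2, 3 or 4 (adjusted p 0.0508 to 0.0721), and its other probe, used with a band of rows left out, had a difference of −0.16. It also ended with all its probes averaged (0.12, adjusted p 0.742), with Cy3 alone (adjusted p 0.0514) and with slide 3 or 4 alone (adjusted p 0.0913 and 0.0773). The call of C5ar1 ended without hFc 1, 3 or 4 or VEGF-A 1, 2, 4 or 5 (adjusted p 0.0621 to 0.137), and VEGF-A 3 at −0.46 lay among the hFc values. It also ended with no filter on dim probes (adjusted p 0.0584), with hFc 1 and 2 averaged (0.0671), with slide 3 or 4 alone (0.101 and 0.193) and with normexp and loess, where the difference was 0.29 (0.173).

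Lgals3 fell most. It measured −0.90, −0.96, −0.94, −1.05 and −1.05 with VEGF-A, below every sample of the other 3 groups. The fall from hFc was 1.15 on the log2 scale (SE 0.20, adjusted p 0.00128), which makes hFc 2.22-fold higher. Gpr34 fell by 0.71 (SE 0.16, adjusted p 0.0109), with values of −0.51, −0.10, −0.07, −0.69 and −0.20 against 0.22, 0.76, 0.38 and 0.24. With all probes of Gpr34 averaged the difference was −0.53 (adjusted p 0.124), and with normexp and loess −0.30 (adjusted p 0.0144). Tlr7 measured −0.74, −0.64, −0.71, −0.72 and −0.67 with VEGF-A and 0.22, 0.38, −0.03 and −0.52 with hFc. Its fall of 0.71 (SE 0.18, adjusted p 0.0173) lost its call without hFc 1 or hFc 2 (adjusted p 0.0583 and 0.0671), with hFc 1 and 2 averaged (0.0621) and with slide 3 or 4 alone (0.117 and 0.104). The falls thus named 3 members of different roles.

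Within the VEGF-A group, the values of Coro1a and Cd83 split by slide. Both genes were chosen after their values were seen, and how many members or genes split in this way was not counted. Coro1a measured −0.28 and −0.26 in VEGF-A 1 and 2 on slide 3 and 0.22, 0.32 and 0.27 in VEGF-A 3, 4 and 5 on slide 4. Cd83 measured −0.22 and −0.21 on slide 3 and 0.30, 0.20 and 0.18 on slide 4. Neither passed the threshold against hFc.

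Beside these values, VEGF-A moved Tgfb1 by 1.68 (SE 0.16, adjusted p 1.73e-05), over a single hFc value of −0.47, and Csf1 by 0.43 (SE 0.12, adjusted p 0.0374). Of 18 further microglia genes, 3 rose and 3 fell. Lyn rose by 1.09 (SE 0.07), Pros1, a bridging protein of engulfment, by 0.68 (SE 0.08), and the secreted Olfml3 fell by 1.1 (SE 0.15). Lyn and Pros1 are also expressed in endothelium, of which 5 of 8 genes rose and 1 fell, Pecam1 with the smallest p at 1.31 (SE 0.10). The part of endothelial RNA in the values of both genes was not tested. Of the other lists, 4 of 17 disease-associated genes rose and 1 fell, Tnf by 1.48 (SE 0.24) and Ccl12 by 1.46 (SE 0.25), while 0 of 15 interferon genes rose and 1 fell (Rtp4).

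**Figure D4:**
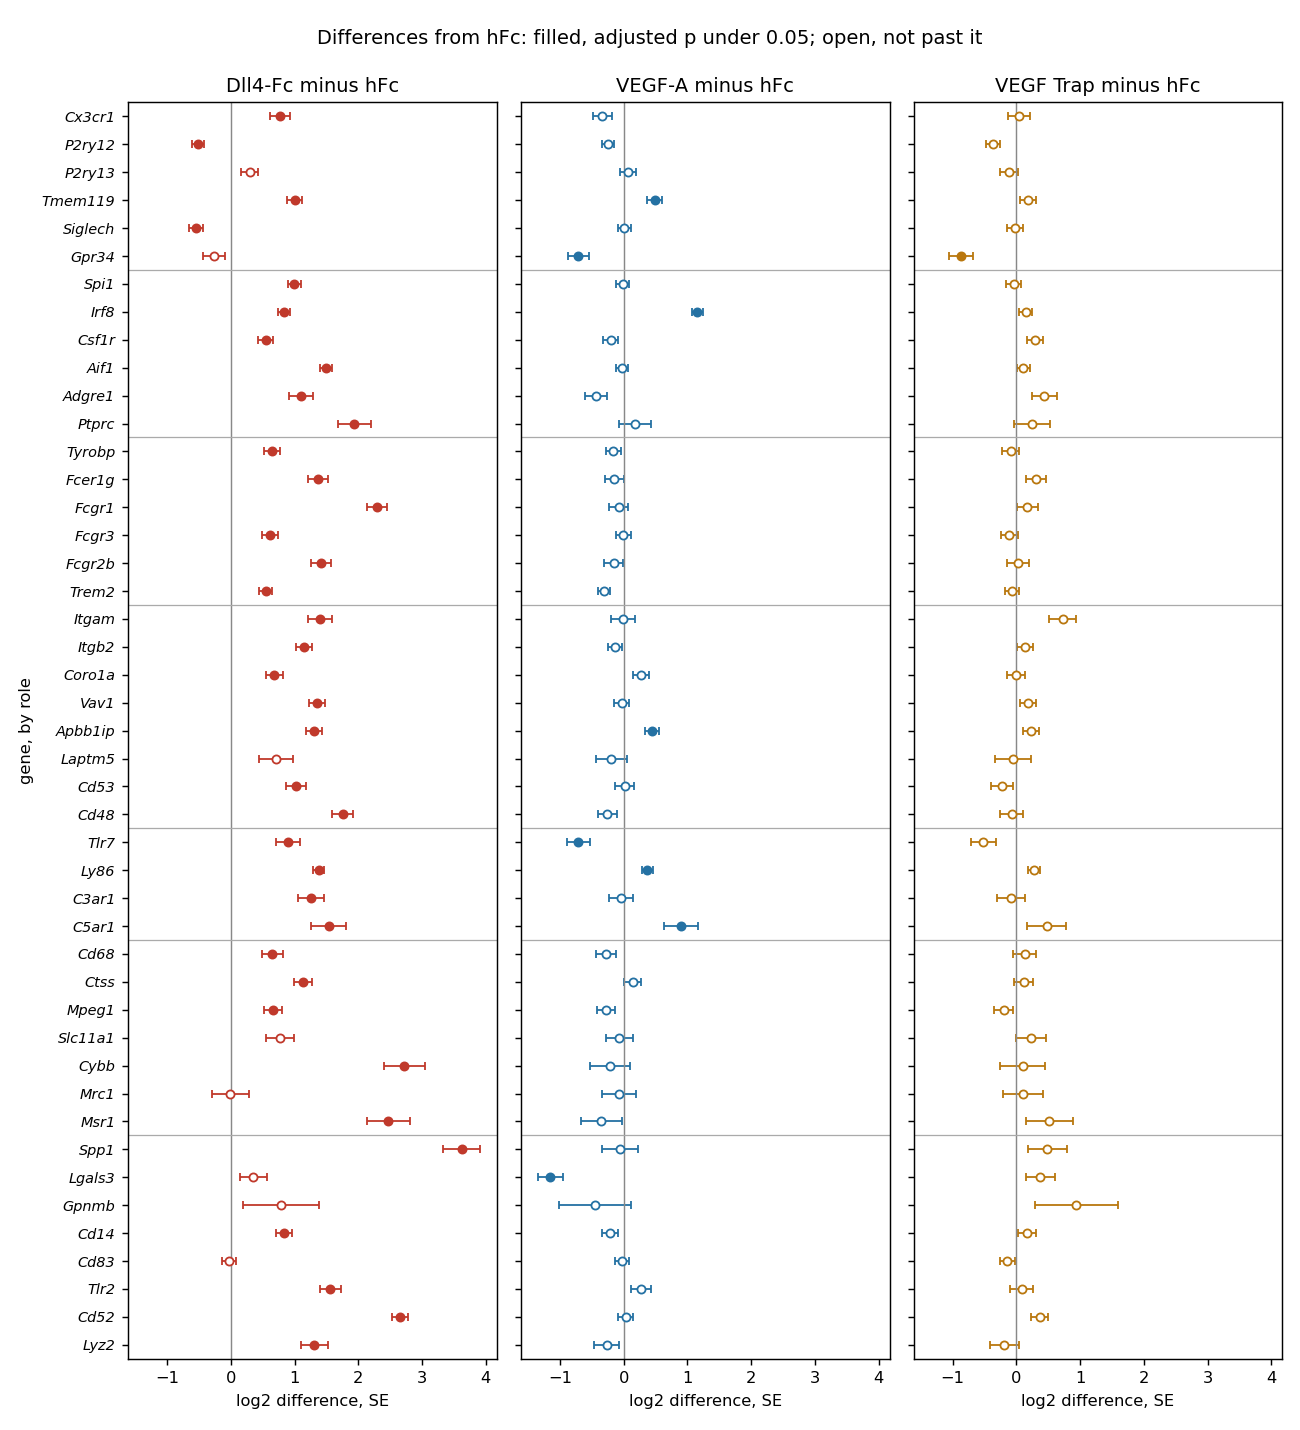
Log2 difference from hFc with its SE for 45 members (rows, by role) after Dll4-Fc, VEGF-A and VEGF Trap, with filled points for an adjusted p under 0.05. Filled points number 37, 8 and 1, and those of Dll4-Fc lie mostly right of 0.

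VEGF Trap, which withdraws VEGF, was compared with the same hFc samples. Of the 45 members, 0 rose and 1 fell, or 2.22% against 3.73% of all 22737 genes tested, of which 1.31% rose and 2.43% fell. The median difference was 0.11, against −0.02 over all genes. Gpr34 was the member that fell, from 0.22, 0.76, 0.38 and 0.24 with hFc to −0.12, −0.39 and −0.88, by 0.86 (SE 0.19, adjusted p 0.023). That call ended without hFc 2, hFc 3 or VEGF Trap 3, with an adjusted p of 0.0535 to 0.0883. It also ended with Cy3 alone (0.0849), only these 2 groups (0.0756), slide 3 alone (0.064) and all probes averaged, where the difference was −0.53 (adjusted p 0.207), and with normexp and loess the difference was −0.38 (adjusted p 0.015). With 3 VEGF Trap samples the intervals were wide, and the SE of a member was 0.09 to 0.65.

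Several members had no overlap between VEGF Trap and hFc and still missed the threshold. These were 6 higher (Csf1r, Adgre1, Fcer1g, Itgam, Ly86 and Spp1) and, beside Gpr34, P2ry12 as lower. In hFc, outlier spots left Fcer1g with 1 value, Csf1r with 3 and Spp1 with those of hFc 3 and 4. A lack of overlap is easier to reach with so few values. Over all genes, 25.5% had no overlap (11.6% higher and 13.9% lower), against 17.8% of the members. Itgam differed by 0.73 (SE 0.21, adjusted p 0.069) and P2ry12 by −0.37 (SE 0.10, adjusted p 0.0657). Gpnmb was measured at −0.59, 2.26 and −0.90, so that 1 sample, VEGF Trap 2, set its difference of 0.94 (SE 0.65). Tgfb1 fell by 1.1 (SE 0.17, adjusted p 0.00597, a single hFc value), and 7 of 8 endothelial genes fell, Tie1 with the smallest p at −0.79 (SE 0.07).

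VEGF-A and VEGF Trap samples shared slides 3 and 4, which makes theirs the comparison least tied to a slide. The dose and age at injection of VEGF Trap, which the labels do not give, may differ from those of VEGF-A. Between them 1 member was higher with VEGF-A and 5 were lower, 13.3% of the members against 19.2% of all 23307 genes tested. By direction these were 2.22% against 10.6% higher and 11.1% against 8.68% lower. The median difference over the members was −0.13, against −0.03 over all genes. No overlap was seen for 3 higher and 8 lower members, 24.4% against 25.2% of all genes (12.7% higher and 12.6% lower). With both directions together, the members' share was thus no larger than that of genes at large. For members lower with VEGF-A the share past the threshold, 11.1%, was close to the 8.68% of all genes.

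Irf8 was the member that was higher. It measured −0.65, −0.46 and −0.39 with VEGF Trap, below all VEGF-A values, a difference of 1.01 (SE 0.10, adjusted p 2.91e-06). Within slide 3 the difference was 1.1 (SE 0.14), and within slide 4, where VEGF Trap had 1 sample, it was 0.89 (SE 0.17). Lgals3, at 0.25, 0.71 and 0.66 with VEGF Trap, was lower with VEGF-A by 1.52 (SE 0.22, adjusted p 0.000163). The difference was −1.41 (SE 0.35) within slide 3 and −1.67 (SE 0.39) within slide 4.

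The other lower members were Adgre1, Itgam, Csf1r and Fcer1g. Adgre1 measured −0.67, −0.68, −0.84, −0.91 and −0.90 with VEGF-A and 0.03, −0.09 and 0.28 with VEGF Trap, a difference of −0.87 (SE 0.19, adjusted p 0.00462). Itgam differed by −0.74 (SE 0.20, adjusted p 0.0184), Csf1r by −0.49 (SE 0.12, adjusted p 0.00839) and Fcer1g by −0.45 (SE 0.10, adjusted p 0.00884). Without VEGF Trap 1 the calls of Csf1r and Itgam ended (adjusted p 0.0511 and 0.061, in that order), and that of Itgam also without VEGF Trap 3 (adjusted p 0.079). Within slide 3 and slide 4 in turn, the differences were −0.64 and −1.16 for Adgre1, −0.72 and −0.83 for Itgam and −0.40 and −0.53 for Fcer1g, with no call on either slide alone. For Csf1r they were −0.24 (adjusted p 0.223) and −0.68 (adjusted p 0.00622), and −0.43 (adjusted p 0.0536) with slide as a fixed block. The call of Csf1r also ended when rows of that band were dropped (−0.30, adjusted p 0.131) and with its probes averaged (−0.36, adjusted p 0.134), and that of Adgre1 with its probes averaged (adjusted p 0.0583). With normexp and loess Itgam differed by −0.45 (adjusted p 0.0114). Tgfb1 was higher with VEGF-A by 2.78 (SE 0.11), Cd47 lower by 0.30 (SE 0.09, adjusted p 0.0244), and 7 of 8 endothelial genes were higher.

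**Figure D5:**
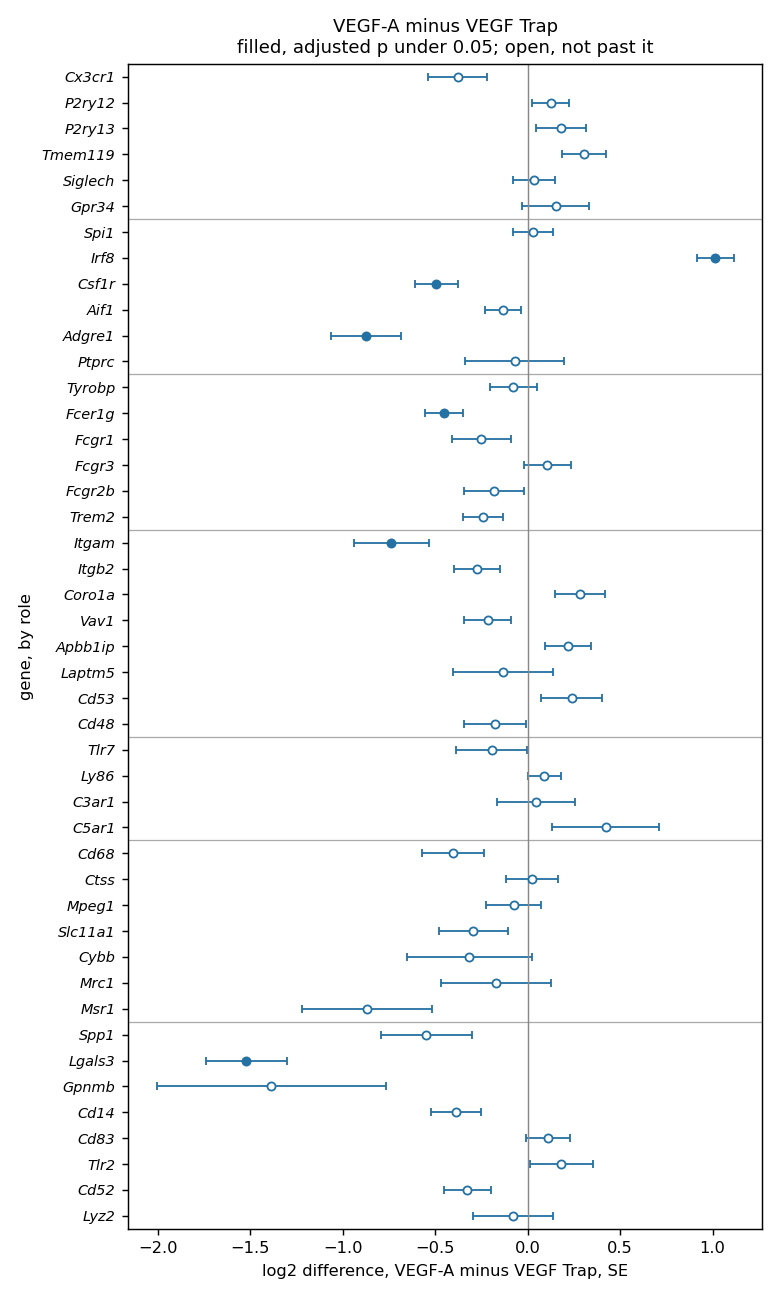
Log2 difference of VEGF-A minus VEGF Trap with its SE for 45 members (rows, by role), with filled points for an adjusted p under 0.05. Irf8 is the only filled point right of 0, and Csf1r, Adgre1, Fcer1g, Itgam and Lgals3 are filled to the left.

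Dll4-Fc was last set against both VEGF treatments. Dll4-Fc samples lay on slide 2 and the others on slides 3 and 4, so slide and treatment cannot be told apart here either. The doses were 4 µg of Dll4-Fc and 1 µg of VEGF-A, and that of VEGF Trap is not given in the labels. Against VEGF-A, 36 members were higher with Dll4-Fc and 2 lower, 84.4% against 13.3% of all 23307 genes, with a median of 1.01. Of all genes, 6.36% were higher and 6.92% lower. The groups did not overlap for 36 higher and 2 lower members, against 7.04% and 7.38% of all genes, or 84.4% against 14.4% together. The 2 that were lower were Siglech, by 0.56 (SE 0.10, adjusted p 0.00161), and Irf8, by 0.33 (SE 0.09, adjusted p 0.0254). The call of Irf8 ended when Dll4-Fc 1, 2 or 4 or VEGF-A 1, 2 or 3 was left out, with an adjusted p of 0.0536 to 0.0786, and with Cy3 alone (0.137). Lgals3, which did not differ past the threshold from hFc, was higher with Dll4-Fc than with VEGF-A by 1.5 (SE 0.20, adjusted p 7.2e-05).

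Against VEGF Trap, 34 members were higher with Dll4-Fc and 1 lower, 77.8% against 13.5% of all genes (8.19% higher and 5.35% lower), with a median of 0.87. The groups did not overlap for 37 higher members and 1 lower, 84.4% against 25.2% of all genes (14% higher and 11.2% lower). Siglech was the lower one, by 0.52 (SE 0.12, adjusted p 0.0097), and its call ended without VEGF Trap 1 (adjusted p 0.0633) and with only these 2 groups fitted (0.0538). P2ry12, by contrast, differed by −0.14 (SE 0.10, adjusted p 0.42) from VEGF Trap and by −0.27 (SE 0.09, adjusted p 0.0724) from VEGF-A. Its fall was past the threshold against hFc alone among the 3 comparisons of Dll4-Fc, and differences between those comparisons were not tested. Spp1 was higher with Dll4-Fc by 3.68 (SE 0.22) than with VEGF-A and by 3.13 (SE 0.26) than with VEGF Trap, over all samples of these groups. The 3 comparisons share the Dll4-Fc samples, so they are given side by side and not as separate support.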

How the data were processed

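RNA of 16 mouse retina samples was measured on 2-colour Agilent arrays of 43426 probes. Per the submitters' processing notes and the file headers, intensity values came from Agilent Feature Extraction 9.5.1.1. The deposited log10 LogRatio column, per the file headers, is Cy5 over Cy3 after background subtraction and dye normalization. Its sign was turned and its scale changed to log2. The authors deposited a series matrix in natural log, used as an alternative. Deposited flags mark outlier spots, which were left out (2350 to 2599 spots per hFc array, 12 to 213 on the others, 98.7% of the former in a band of 172 of 532 rows holding the chosen probes of 15 members), and spots well above background. No spot was marked as saturated.

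Probes with a Cy3 signal well above background on 3 or more arrays were kept (39787 probes, 23307 genes), named by symbol through a RefSeq table. Of the members' 86 probes, 71 had an accession of the same gene and 0 of another. A single limma fit (limma 3.58.1, R 4.3.3, statmod 1.5.0) of 4 groups gave 2-sided moderated tests with Benjamini-Hochberg adjustment over all genes, with 12 residual and 2.32 prior degrees of freedom and a median SE of 0.12 to 0.14. A gene was past the threshold at an adjusted p under 0.05. Precision is limited by the number of arrays. On simulated arrays the fit recovered 31 to 41% of log2 changes of 0.5 and 68 to 79% of changes of 1 over 6 comparisons. These arrays had normal noise and 100 changed genes of each size among 20364 genes with a value on every array. That is a smaller share of changed genes than was called in any comparison, and members with missing values were not covered. The rates therefore need not hold for the comparisons reported here. Named genes are all members, all growth factors and restraining ligands and, of each other list, up to 3 called genes with the smallest p per comparison, except 1 gene that is not reported here. A gene named in a marker count for any other reason was chosen after its values were seen. Members and lists were chosen with earlier results of these data known. Alternatives covered the background correction, Cy3 alone, the series matrix, outlier spots, the filter, all probes averaged, the samples fitted, the slide and each sample left out. No genome build of the probes was given, and none was used.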

Additional observations from a re-analysis of the deposited data

Results flagged for a closer look

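Of 131 groups of 4 or 5 values of a member, 10 held a sample whose gap to its nearest neighbour was large for the range of the group by Dixon's rule, and chance marks about 1 in 20. In the hFc group these were P2ry13 in hFc 4 (−0.30), Ptprc in hFc 1 (−1.16), Fcgr1 in hFc 4 (−1.29) and Itgam in hFc 2 (−1.33), each the lowest of its group. In the Dll4-Fc group they were Coro1a in Dll4-Fc 2 (0.27) and Mrc1 in Dll4-Fc 3 (−0.57), again the lowest. The other 4 were all in VEGF-A 3, which was highest for Tmem119 (0.40) and Siglech (0.49) and lowest for Laptm5 (−1.51) and C5ar1 (−0.46). Over the 45 members VEGF-A 3 was the highest of its group for 24 and the lowest for 9.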

How the results depend on the processing

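The counts of members past the threshold stayed within 1.5 times of those reported for Dll4-Fc against hFc, VEGF-A and VEGF Trap under each alternative run, and 30 of 37, 34 of 38 and 29 of 35 calls held under all of them. For VEGF-A against hFc, VEGF-A against VEGF Trap and VEGF Trap against hFc, 2 of 8, 2 of 6 and 0 of 1 calls did. Leaving out 1 sample gave 34 to 37 calls for Dll4-Fc and 6 to 9 for VEGF-A against hFc, 0 to 1 for VEGF Trap against hFc, 4 to 8 for VEGF-A against VEGF Trap, and 35 to 38 and 31 to 33 for Dll4-Fc against VEGF-A and VEGF Trap. With the band of rows left out, which left 35 members, VEGF-A had 4 calls against hFc and 2 against VEGF Trap, and the difference of Apbb1ip between VEGF-A and hFc turned to −0.16 on another probe. With the samples of slide 3 alone, VEGF-A had 5 calls against hFc and 3 against VEGF Trap. For VEGF Trap against hFc there were 0 calls with Cy3 alone, all probes averaged, only these 2 groups or slide 3 alone, 2 with outlier spots kept and 4 with the series matrix; apart from fewer samples, the causes were not tested. Over all genes, the calls for VEGF Trap against hFc, 849 as reported, numbered 309 with Cy3 alone, 469 with hFc 1 and 2 averaged, 543 with only these 2 groups, 176 with slide 4 alone and 1820 with normexp and loess. Those for VEGF-A against VEGF Trap went from 4486 to 2988 and 2348 with slide 3 or 4 alone, and those for Dll4-Fc against VEGF Trap from 3158 to 2081 with only these 2 groups. Left out singly, VEGF Trap 1 gave 190, 2890 and 1560 calls for these 3 comparisons in turn, VEGF Trap 3 gave 379 for the first and 2034 for the last, and hFc 2, 3 and 4 gave 366, 389 and 533 for the first. Slide as a random block (correlation −0.00215) changed no count of members, and as a fixed block it left 5 calls between VEGF-A and VEGF Trap. No paired analysis was possible because the labels give no replicate numbers shared between groups. The titles carry codes of unstated meaning, whose first part is shared by hFc 1 and 2, which is why these were averaged as an alternative, and by VEGF-A 4 and VEGF Trap 3, a single link across groups. Dim signal limits Mrc1, and outlier spots limit Fcer1g, Spp1, Slc11a1 and Csf1r in hFc.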

Other observations

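In pairs of samples of the same group, the levels of the 45 members correlated at 0.39 to 0.91. The lowest hFc sample was hFc 4 for 28 of the 41 members with all 4 values, and its mean over the members was −0.51 against −0.40, −0.34 and −0.34 in the other three. In the VEGF Trap group, VEGF Trap 1 was the lowest for 27 of the 45 members. Ly86 was the member with every hFc value below all values of the other 3 groups, and Adgre1, Fcer1g, Tlr7 and Lgals3 had every VEGF-A value below all others. The shares of all genes with such values were not counted.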
